A study of Caenorhabditis elegans with 33 samples.

Results

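The abu and pqn genes of the nematode Caenorhabditis elegans were taken as every gene of the deposited count table whose name is abu or pqn followed by a number, a rule that uses no measured value. It gave 65 of 17907 genes, 12 abu and 53 pqn, and 1 further gene that fits the pattern is not reported here. The name abu stands for activated in blocked unfolded protein response, the stress in which these genes were first described. Many abu genes and their pqn relatives encode secreted proteins rich in glutamine, asparagine and cysteine that build the cuticle lining the pharynx, the feeding organ, and their transcripts peak with each larval moult. The name pqn was given to any gene for a prion-like glutamine- and asparagine-rich domain, so the pqn genes have unrelated functions. PQN-59, for example, is the counterpart of the human stress granule protein UBAP2L, and PQN-41 is a polyglutamine protein that acts in the death of the linker cell of males.

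The libraries were made from polyadenylated RNA of whole hermaphrodites collected as pooled populations on day 2 of adulthood. They were raised at 16 °C to the fourth larval stage, then moved to 20 °C on plates with FUdR, a drug that stops offspring from forming. There were 4 strains on HT115 bacteria. The double mutant eat-2(ad465);mxl-2(tm1516), the eat-2(ad465) mutant, the mxl-2(tm1516) mutant and the wild type N2 were each fed daf-16 RNAi, pha-4 RNAi or the empty vector L4440 (EV). The eat-2 gene encodes an acetylcholine receptor subunit needed for fast pharyngeal pumping, and its mutant is a genetic model of dietary restriction. MXL-2 is a Myc-family transcription factor of the Mlx type, DAF-16 is the FOXO factor of insulin signalling, and PHA-4 is the FOXA factor that specifies the pharynx in the embryo. The 12 groups held 33 libraries, 2 in each eat-2 group and 3 in each other group. The libraries were taken as separate synchronised populations, so p-values measure the spread between the libraries of a group. An absence of shared spread between libraries of different groups was not shown.

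The libraries held 20.2 M to 31.5 M counts, with a median of 27.96 M. The mxl-2 transcript was at 2.79 to 8.32 CPM (counts scaled to library size, with TMM factors) in all libraries of the tm1516 strains, against 25.7 to 82.3 CPM in the others. For the daf-16 transcript, log2 fold changes on its own RNAi ran from -1.12 in the double mutant to -0.65 in eat-2, whose libraries overlapped, and edgeR called it in the double mutant (adjusted p = 0.0170) and in no other strain. The pha-4 transcript had 7.74, 12.8 and 10.8 CPM in the libraries labelled eat-2;mxl-2 pha-4 RNAi, against 3.99, 3.27 and 4.22 CPM in those labelled eat-2;mxl-2 EV, which goes against the labels. On the other strains the log2 fold change of pha-4 on its RNAi was -1.46 in N2, -0.84 in mxl-2 and -0.39 in eat-2, and none passed edgeR's test (adjusted p of 0.0919, 0.408 and 0.663 in that order). Directions drawn below from these double-mutant libraries rest on their labels, and they are written as labelled throughout. The mxl-2 EV replicate 3 and mxl-2 daf-16 RNAi replicate 2 libraries stood apart, with correlations of log2 CPM to their partners of 0.898 to 0.912 and 0.817 to 0.828, while their partners correlated at 0.989 and 0.993.

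The most abundant members were pqn genes, and the abu genes were scarce. In TPM, a share of all transcripts that also scales each gene by its length, pqn-59 averaged 384 TPM over the 33 libraries and ranged between 124 and 604. It was followed by pqn-70 at 204 TPM, pqn-52 at 190 TPM, pqn-53 at 136 TPM, pqn-51 at 99.98 TPM, pqn-83 at 83.0 TPM, pqn-87 at 75.3 TPM and pqn-94 at 51.5 TPM. No abu gene came near these levels. The highest, abu-14, whose protein lies in the pharyngeal cuticle, averaged 11.04 TPM, and abu-13 averaged 6.66 TPM. The median of the mean levels was 1.58 TPM for the 12 abu genes and 6.504 TPM for the 53 pqn genes, and 10 members averaged under 1 TPM.

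The families also differ in build and place. On the WBcel235 build, 6 of 12 abu genes lie on chromosome V, 3 on X, 2 on II and 1 on III. The genes abu-15 (V:5158602-5159907), abu-6 (V:5160678-5161892), abu-7 (V:5163270-5164782) and abu-8 (V:5192995-5194608) form a cluster on V, and abu-1 (V:10380340-10381826) lies beside pqn-2 (V:10382442-10384063). The abu genes have a median of 2.5 exon blocks and the pqn genes 8. Reads shared between such near relatives could be split between them by the counting step, whose handling of such reads and of strand is not given in the sources used here, so values of single abu genes of a cluster are uncertain. 64 members passed the filter on low counts, and abu-2, at 0.0564 TPM on average, did not.

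Across the 12 groups, edgeR's quasi-likelihood test called 30 of the 64 members tested at a Benjamini-Hochberg adjusted p under 0.05, a threshold used for every call below. That is 6 of 11 abu and 24 of 53 pqn genes, against 46.3% of all genes tested. The smallest adjusted p-values belonged to pqn-18 at 1.35e-06, pqn-70 at 7.22e-05, pqn-92 at 0.000133, pqn-75 at 0.000194 and pqn-62 at 0.000218. For these genes most of the variance in log2 CPM lay between the groups: the share within groups was 7.62% for pqn-18, 12.1% for pqn-70, 16.1% for pqn-62, 18.5% for pqn-75 and 18.97% for pqn-92. They were picked by a test that weighs variance between groups against that within, so low shares follow from the choice. The abu genes had a median share within groups of 54.03%, the pqn genes of 47.1%, and all genes tested of 46.2%. The highest share, 84.5%, was that of pqn-74.

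**Figure D1:**
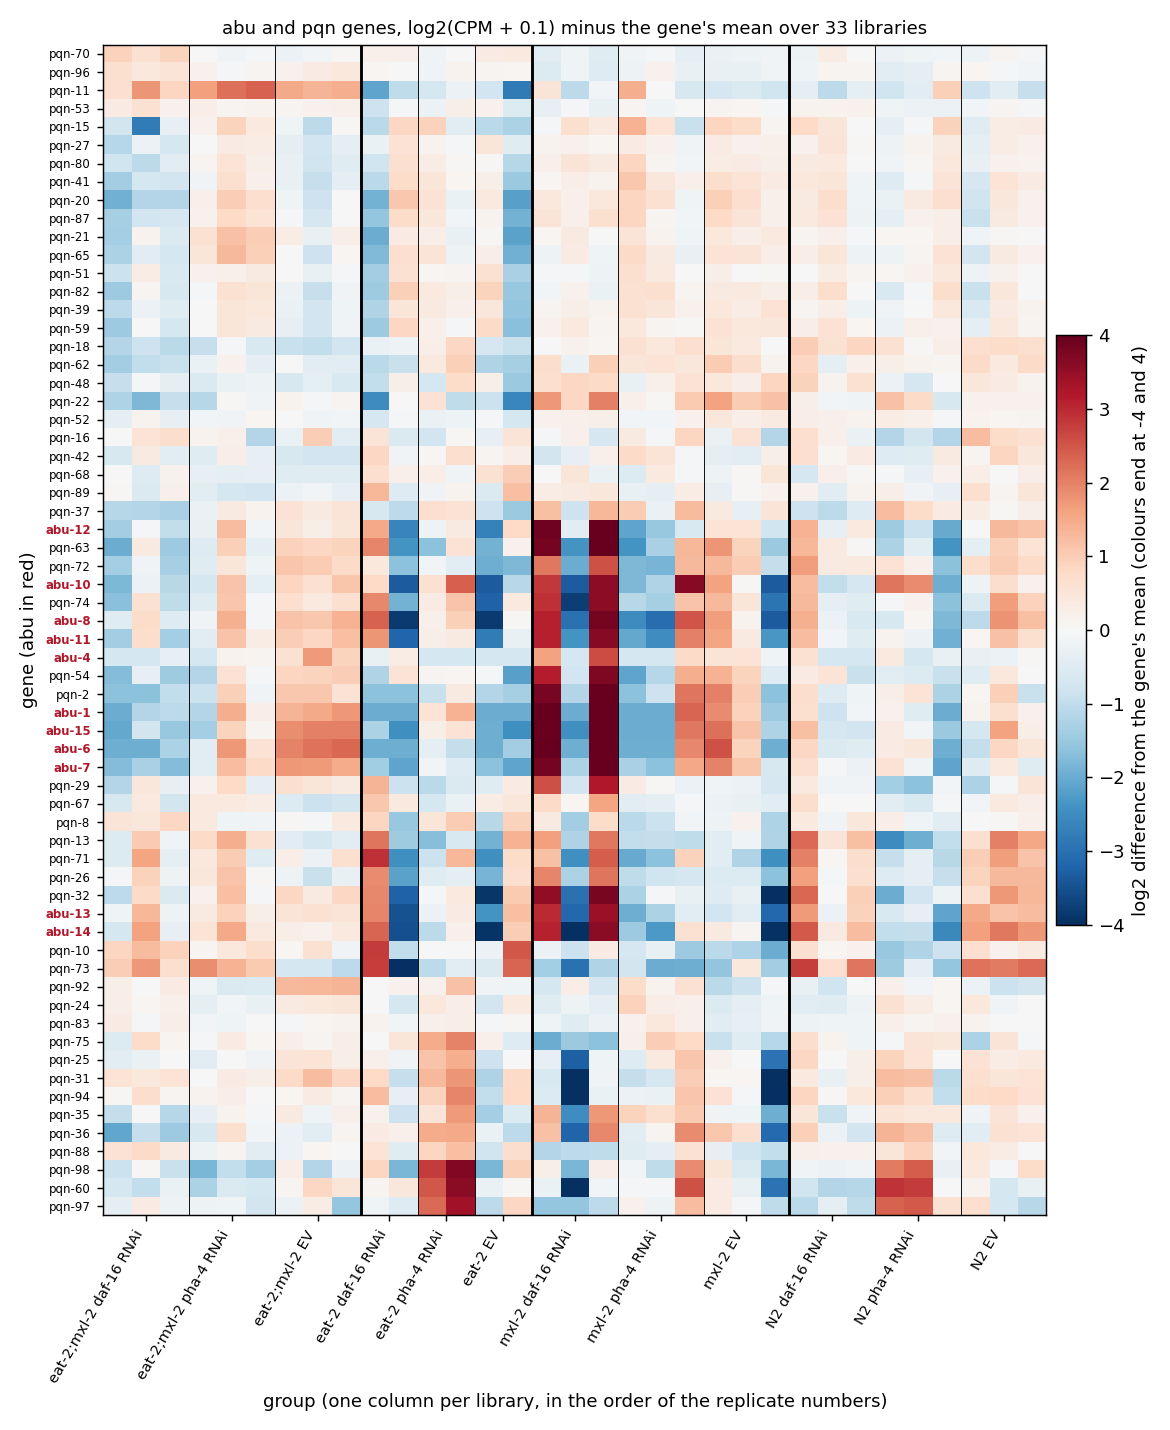
Heat map of the 64 members tested in the 33 libraries: each row is a gene (abu names in red), each column a library, and colour gives log2(CPM + 0.1) minus the gene's own mean over the libraries. Rows are ordered by average linkage on correlation. The abu rows lie together between abu-12 and abu-14, with pqn genes such as pqn-2, pqn-32 and pqn-74 among them, and mxl-2 daf-16 RNAi replicate 2 is low there beside 2 high partners.

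The abu genes were high or low together in single libraries. Summed over the 12 abu genes, the level was 145, 1.24 and 225 TPM in the mxl-2 daf-16 RNAi libraries, against 30.3, 19.4 and 1.32 TPM in mxl-2 EV. In eat-2 it was 67.1 and 1.09 TPM on daf-16 RNAi, 13.7 and 22.3 TPM on pha-4 RNAi, and 1.07 and 25.3 TPM on EV. So the lowest libraries of mxl-2 and eat-2 lay at the same level on daf-16 RNAi and on EV, and their partners lay many times higher. The libraries labelled eat-2;mxl-2 EV, at 33.7, 32.97 and 35.2 TPM, and the N2 EV libraries, at 30.5, 43.0 and 36.7 TPM, were close to each other. On daf-16 RNAi the double mutant had 8.55, 26.6 and 9.64 TPM, and N2 had 57.5, 12.9 and 21.7 TPM. On pha-4 RNAi the sums were 19.04, 45.1 and 19.6 TPM in the libraries labelled eat-2;mxl-2 pha-4 RNAi, 3.75, 3.59 and 37.1 TPM in mxl-2, and 12.02, 11.9 and 2.81 TPM in N2.

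This pattern between libraries took in a larger share of the abu genes than of the pqn genes. In mxl-2 daf-16 RNAi replicate 2, 10 of 11 abu and 17 of 52 pqn genes were more than 4-fold below both other replicates, against 15.1% of all genes tested (counted over genes with more than 3 counts in some library of the group, with 3 counts as the floor of a library). In mxl-2 EV replicate 3 it was 9 of 11 abu and 9 of 52 pqn genes, against 10.3%. In eat-2 EV replicate 1 it was 5 of 6 abu and 11 of 52 pqn genes, against 14.3%, and in eat-2 daf-16 RNAi replicate 2 it was 6 of 7 abu and 11 of 52 pqn genes, against 17.1%. In the other direction, mxl-2 pha-4 RNAi replicate 3 was more than 4-fold above both partners for 8 of 11 abu and 8 of 53 pqn genes, against 7.67%. In N2 pha-4 RNAi replicate 3, 3 of 10 abu and 4 of 52 pqn genes were more than 4-fold lower, against 4.16%. No test was made between replicates, and these libraries were chosen after their values were seen.

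The most abundant abu gene, abu-14, which was chosen after its values were seen, shows the span. It had 64.4, 0.364 and 93.3 CPM on mxl-2 daf-16 RNAi, against 9.77, 8.19 and 0.392 CPM on mxl-2 EV. On eat-2 daf-16 RNAi it had 38.5 and 0.56 CPM, against 0.398 and 15.04 CPM on eat-2 EV. The groups overlapped in both strains. In N2, abu-14 had 3.74, 3.84 and 1.16 CPM on pha-4 RNAi and 41.8, 9.55 and 17.9 CPM on daf-16 RNAi, against 23.9, 33.02 and 25.03 CPM on EV. All 3 N2 pha-4 RNAi libraries lay below all N2 EV libraries, but edgeR's test in the model of all groups did not call abu-14; with the 6 libraries fitted alone it was called.

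In the lowest abu libraries of mxl-2 and eat-2 on daf-16 RNAi and EV, markers of the pharynx were low next to their partners. Those of some other tissues were low there too, while yolk genes were high. The summed level of 6 pharyngeal muscle genes was 14.4 TPM in mxl-2 daf-16 RNAi replicate 2, against 82.8 and 113 TPM in its partners, and 11.45 TPM in mxl-2 EV replicate 3, against 150 and 111 TPM. In eat-2 it was 44.05 TPM in daf-16 RNAi replicate 2, against 417 TPM, and 29.9 TPM in EV replicate 1, against 290 TPM. The list of 12 genes of pharyngeal glands, marginal cells and pharyngeal cuticle ran the same way, with 11.7 TPM in mxl-2 daf-16 RNAi replicate 2, against 112 and 165 TPM. Major sperm protein genes (31 genes) had 34.6 TPM in that library, against 9551 and 10716 TPM, and 56.6 TPM in mxl-2 EV replicate 3, against 10580 and 7619 TPM. Body-shape collagens of the outer cuticle (19 genes) had 179 TPM in mxl-2 daf-16 RNAi replicate 2, against 2909 and 3643 TPM. The summed level of 6 yolk genes ran the other way, at 32311 TPM in mxl-2 daf-16 RNAi replicate 2, against 8428.5 and 9433 TPM, and at 33068 TPM in mxl-2 EV replicate 3, against 20060 and 17355 TPM. In eat-2 the yolk sum was 14819 TPM in daf-16 RNAi replicate 2, against 2080 TPM, and 11311 TPM in EV replicate 1, against 1735 TPM. Low abu sums did not always come with low pharynx sums. In N2 pha-4 RNAi replicates 1 and 2, the abu genes summed to 12.02 and 11.9 TPM. Pharyngeal muscle genes summed to 161 and 135 TPM there, against 154 to 167 TPM in N2 EV. In replicate 3 the sums were 2.81 and 43.0 TPM. None of the pharyngeal muscle genes was at 0 in any library, while up to 2 genes of the gland list and up to 11 sperm genes were. In whole animals, fewer cells of a type and less RNA per cell cannot be told apart, and the part of these tissues in the abu values was not tested.

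**Figure D2:**
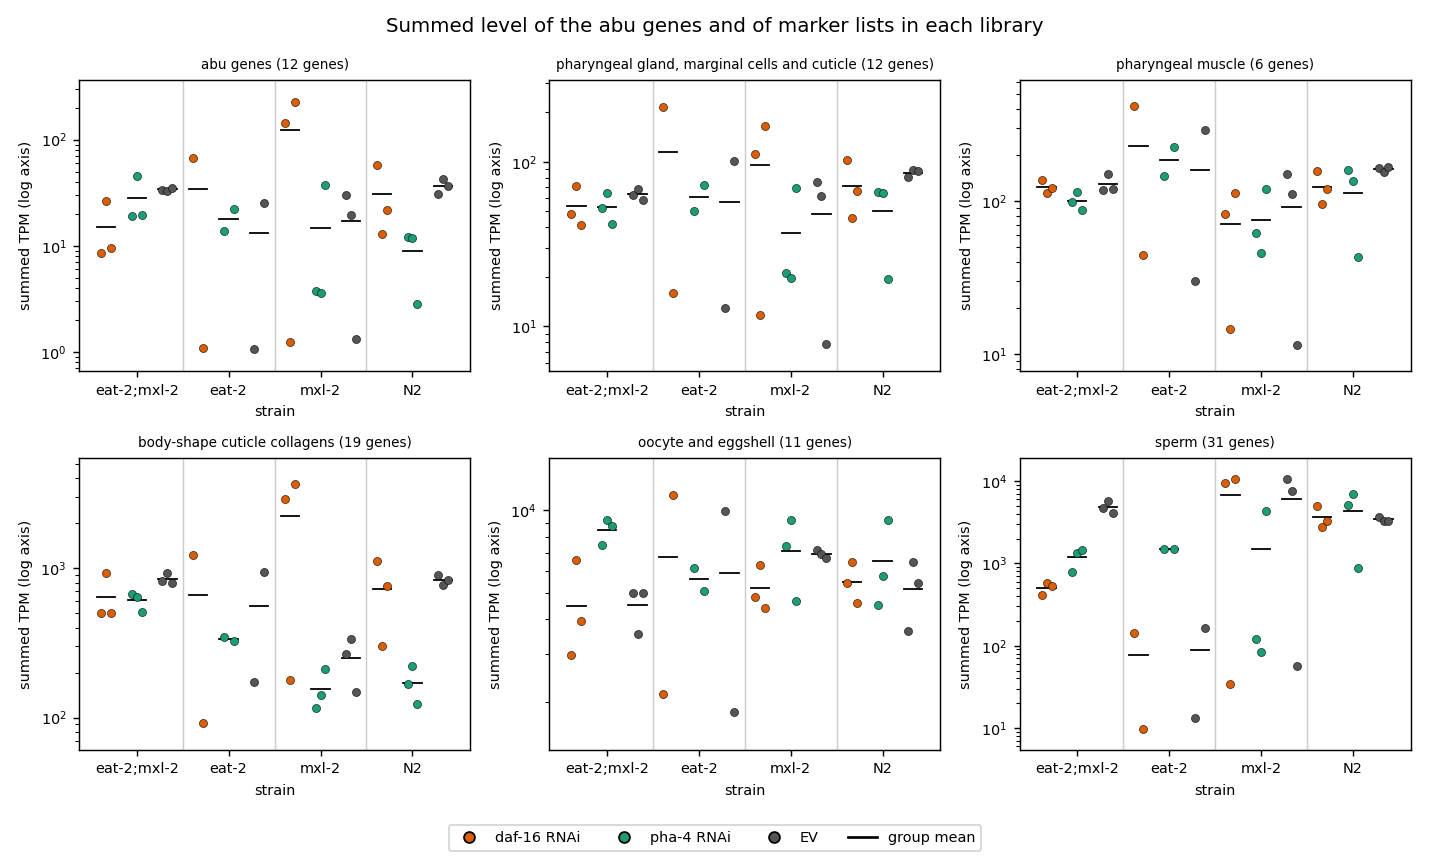
Summed TPM per library (log axes) of the 12 abu genes and of 5 marker lists, by strain and food; points are libraries, short lines are group means. The low abu libraries of mxl-2 and eat-2, at 1.07 to 1.32 TPM, have pharyngeal muscle sums of 11.45 to 44.05 TPM, against 82.8 to 417 TPM in the other libraries of these 4 groups.

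Of the 8 most abundant members, pqn-94 and pqn-59 are described in these 4 libraries, and the others are not. The gene pqn-94 had 1.08 TPM in mxl-2 daf-16 RNAi replicate 2, against 25.3 and 31.5 TPM in its partners. In mxl-2 EV replicate 3 it had 0.74 TPM, against 57.8 and 38.1 TPM. In eat-2 EV replicate 1 it had 17.4 TPM, against 75.5 TPM. Its value in eat-2 daf-16 RNAi replicate 2 is not given here. The gene pqn-59 had 473 TPM in mxl-2 daf-16 RNAi replicate 2, against 366 and 366 TPM, 604 TPM in eat-2 daf-16 RNAi replicate 2, against 160 TPM, and 536 TPM in eat-2 EV replicate 1, against 124 TPM. In mxl-2 EV replicate 3 it had 413 TPM, against 519 and 485 TPM, and the sum over the 53 pqn genes was also lowest there, at 1428 TPM, against 1867 and 1767 TPM. Its lowest values were 160 TPM in eat-2 daf-16 RNAi replicate 1, 139 TPM in eat-2;mxl-2 daf-16 RNAi replicate 1 and 124 TPM in eat-2 EV replicate 2. More than 4-fold lower than the partner were 9 of 52 pqn genes in eat-2 EV replicate 2, against 8.54% of all genes tested, and 7 of 52 in eat-2 daf-16 RNAi replicate 1, against 9.97%. In these same libraries 11 oocyte and eggshell genes summed to 1834 TPM in eat-2 EV replicate 2, against 9969 TPM in its partner, and to 2135 TPM in eat-2 daf-16 RNAi replicate 1, against 11329 TPM. The part of the germ line in these values was not tested. Since pqn-59 was high in 3 of the 4 libraries where the pharynx lists were low, the set is called here by its gene names and not by that organ; a difference between the abu and pqn families was not tested.

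Without RNAi, eat-2 mutants had less pqn-62 and pqn-18 transcript than N2. These were the 2 members called in eat-2 EV against N2 EV, both lower, where 0.789% of all genes tested were called. The gene pqn-62 had 2.59 and 2.37 CPM in eat-2 EV, against 10.4, 8.04 and 10.5 CPM in N2 EV, a log2 fold change of -1.96 ± 0.37 (SE) with an edgeR adjusted p of 0.0193. The gene pqn-18 had 10.4 and 8.88 CPM in eat-2 EV, against 26.6, 27.6 and 25.8 CPM in N2 EV, a log2 fold change of -1.47 ± 0.25 with an edgeR adjusted p of 0.00922. Neither gene's groups overlapped, and replicates lay close to each other although the 2 eat-2 EV libraries differed in their abu and germline sums. All 11 abu genes tested had negative fitted log2 fold changes, and the signs were the same under the other scalings. Their median was -2.46, or -1.91 with the members at the floor set at their bound and -0.85 with limma on log2(TPM + 1), while the median of all genes was 0.03. None of them was called by edgeR, and 2 had an unadjusted p under 0.05. The count of members called was 5 without eat-2 EV replicate 1, 0 without eat-2 EV replicate 2, and 1 without N2 EV replicate 1 or 3.

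The mxl-2 mutant on EV showed no member called against N2 EV by edgeR, where 0.0288% of all genes tested were called. At an unadjusted p under 0.05 there were 8 members, and DESeq2 and limma called 0 as well. The abu genes had no steady direction: their median log2 fold change was 0.23 as fitted, -0.04 with floor genes at their bound and -0.06 with limma, with 6 positive and 5 negative as fitted and 5 positive and 6 negative with limma.

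The libraries labelled eat-2;mxl-2 EV had more pqn-92 and pqn-11 and less pqn-73, pqn-18, pqn-42 and pqn-62 than N2 EV. These 6 of 64 members were called, 2 higher and 4 lower (2 and 2 with limma on log2(TPM + 1)), where 12.1% of all genes tested were called. The gene pqn-92 had 69.1, 71.3 and 72.4 CPM in the libraries labelled eat-2;mxl-2 EV, against 23.8, 15.6 and 16.9 CPM in N2 EV, a log2 fold change of 1.92 ± 0.30 with an edgeR adjusted p of 0.000166. The scarcer pqn-11 is annotated as a pseudogene. It had 1.94, 1.74 and 1.83 CPM, against 0.299, 0.431 and 0.276 CPM in N2 EV, a log2 fold change of 2.44 ± 0.74 with an edgeR adjusted p of 0.0304. Both genes kept the double-mutant replicates within a narrow range that lay wholly above N2. The gene pqn-73 had 2.17, 2.16 and 1.70 CPM in the libraries labelled eat-2;mxl-2 EV, against 16.6, 15.6 and 17.5 CPM in N2 EV, with a log2 fold change of -3.04 ± 0.97 and an edgeR adjusted p of 0.0399. The gene pqn-18 had 8.99, 8.42 and 9.84 CPM, against 26.6, 27.6 and 25.8 CPM in N2 EV, a log2 fold change of -1.55 ± 0.21 with an edgeR adjusted p of 5.67e-05. Both were lower in every double-mutant library than in any N2 library. The gene pqn-42 had 1.91, 1.74 and 1.73 CPM, against 3.22, 5.57 and 4.17 CPM in N2 EV, a log2 fold change of -1.27 ± 0.38 (edgeR adjusted p = 0.0282), and pqn-62 had a log2 fold change of -0.94 ± 0.31 (edgeR adjusted p = 0.0498). The count was 2 when any of the 3 libraries labelled eat-2;mxl-2 EV or N2 EV replicate 2 or 3 was left out, and 3 without N2 EV replicate 1. The 2 were pqn-18 and pqn-92 each time, joined by pqn-42 without N2 EV replicate 1. So pqn-11, pqn-73 and pqn-62 were called in none of these fits. Fitted alone, the 6 libraries gave 26, and the share of all genes called at that setting is not given here.

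Against the single mutants on EV, the same libraries had more pqn-92 and pqn-11 in both comparisons. Set against mxl-2 EV, 4 members were called, 3 higher and 1 lower (6 and 1 with limma on log2(TPM + 1)), where 7.86% of all genes tested were called. The gene pqn-92 had 69.1, 71.3 and 72.4 CPM in the libraries labelled eat-2;mxl-2 EV, against 13.2, 15.6 and 26.5 CPM in mxl-2 EV (log2 fold change 1.94 ± 0.30, edgeR adjusted p = 0.000221). For pqn-11 the values were 1.94, 1.74 and 1.83 CPM, against 0.35, 0.377 and 0.305 CPM in mxl-2 EV (2.396 ± 0.74, edgeR adjusted p = 0.0461). No library of either gene overlapped between the groups. The gene pqn-96 had 55.9, 61.5 and 65.5 CPM, against 40.2, 40.1 and 44.7 CPM in mxl-2 EV, higher by 0.55 ± 0.16 (edgeR adjusted p = 0.0317), and pqn-18 fell by 1.19 on the log2 scale, with an SE of 0.21 (edgeR adjusted p = 0.00103). The count was 2 when any of the libraries labelled eat-2;mxl-2 EV or mxl-2 EV replicate 1 or 2 was left out. The 2 were pqn-18 and pqn-92 each time. The gene pqn-11 was called in none of the 6 fits that left out a library of these groups. With the 6 libraries fitted alone the count was 15, and the share of all genes called there is not given here.

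Set against eat-2 EV, 9 members were called, 6 higher and 3 lower (6 and 1 with RLE size factors or limma), where 18.4% of all genes tested were called. The cluster neighbours abu-15 and abu-7 were among the higher ones. Limma called neither, abu-15 was lost in all 5 fits that left out a library of these groups, and abu-7 in all of them but the fit without replicate 3 of the libraries labelled eat-2;mxl-2 EV. The gene abu-15 had 1.88, 2.11 and 2.09 CPM in the libraries labelled eat-2;mxl-2 EV, against 0.0398 and 0 CPM in eat-2 EV. Its summed counts were 201 and 1, a ratio of 134 after scaling by library size, with an exact 95% counting interval of 23.7 to 5305 (edgeR adjusted p = 0.0427). The gene abu-7 had 1.32, 1.31 and 1.10 CPM, against 0.0398 and 0 CPM in eat-2 EV. Its summed counts were 124 and 1, a ratio of 82.4 with an interval of 14.5 to 3282 (edgeR adjusted p = 0.0297). These intervals cover counting error only, and both eat-2 EV libraries were at or under the floor of 3 counts for these genes.

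All 11 abu genes tested were higher in these double-mutant libraries than in eat-2 EV by the fitted value, with a median log2 fold change of 3.10, or 2.17 with floor genes at their bound and 1.41 with limma, while the median of all genes was -0.08. Of the pqn genes, pqn-11 was higher by 3.63 ± 0.95 (edgeR adjusted p = 0.0133), pqn-37 by 1.69 ± 0.51 (edgeR adjusted p = 0.0258), pqn-92 by 1.496 ± 0.34 (edgeR adjusted p = 0.00599) and pqn-62 by 1.02 ± 0.36 (edgeR adjusted p = 0.0494), all on the log2 scale. The neighbours pqn-68 and pqn-67 on V were both lower. The gene pqn-68 had 6.58, 6.46 and 6.55 CPM in the libraries labelled eat-2;mxl-2 EV, against 14.01 and 18.3 CPM in eat-2 EV (log2 fold change -1.31 ± 0.31, edgeR adjusted p = 0.00731), and pqn-67 had 0.734, 0.569 and 0.631 CPM, against 1.39 and 1.57 CPM (-1.19 ± 0.42, edgeR adjusted p = 0.0472). The abundant pqn-70 was lower by a small step, at 147, 160 and 181 CPM, against 220 and 229 CPM in eat-2 EV (-0.47 ± 0.16, edgeR adjusted p = 0.0451). With RLE size factors, or with any library labelled eat-2;mxl-2 EV left out, pqn-68 was called, but pqn-67 and pqn-70 were not. Beside these, 12 of 19 collagens and 15 of 31 sperm genes were called, all higher, and of 6 pharyngeal muscle genes tbx-2 was called, lower; their part in the abu values was not tested. The count of members called was 0 without eat-2 EV replicate 2, and 3, 4 and 5 without replicates 1, 2 and 3 of the libraries labelled eat-2;mxl-2 EV.

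**Figure D3:**
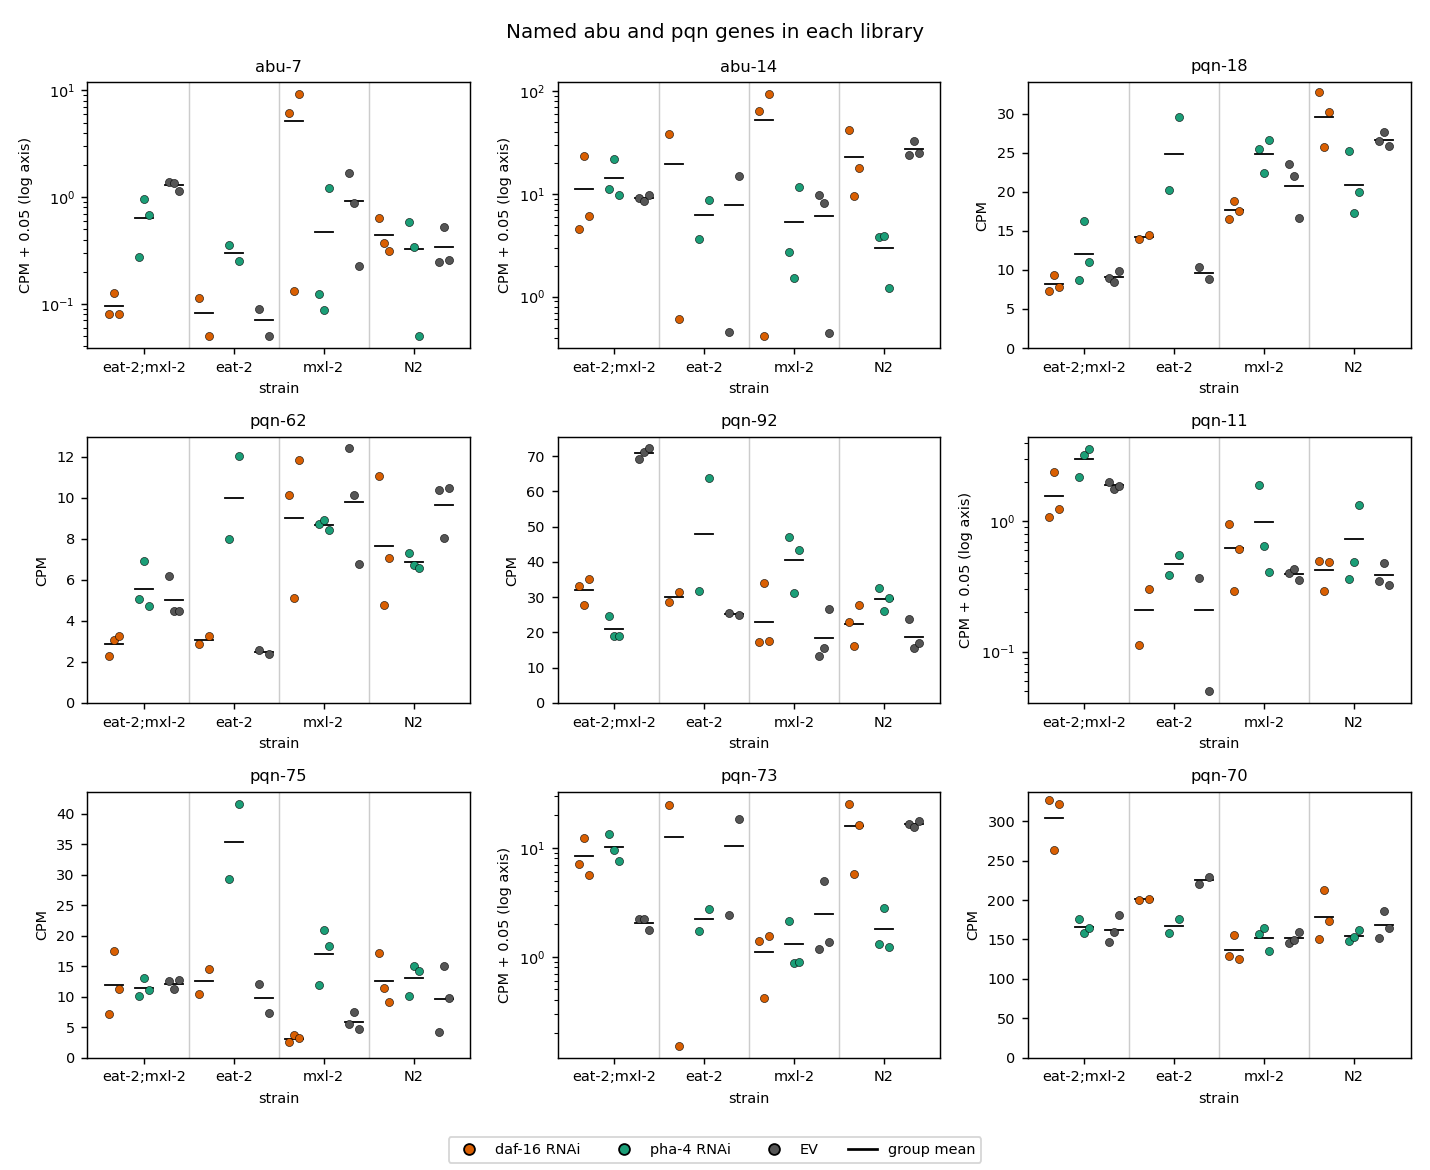
CPM of 9 named genes in each library, by strain and food; points are libraries and short lines are group means, and the panels of abu-7, abu-14, pqn-11 and pqn-73 have a log axis of CPM + 0.05. The libraries labelled eat-2;mxl-2 EV stand highest for pqn-92, at 69.1 to 72.4 CPM, and the eat-2;mxl-2 daf-16 RNAi libraries stand highest for pqn-70, at 263 to 327 CPM.

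On daf-16 RNAi the double mutant had more pqn-70 and less pqn-92, pqn-37 and abu-7 than on EV. These 4 members were called, where 9.55% of all genes tested were called. The gene pqn-70 had 327, 263 and 322 CPM on daf-16 RNAi, against 147, 160 and 181 CPM in the libraries labelled eat-2;mxl-2 EV, a log2 fold change of 0.90 ± 0.15 with an edgeR adjusted p of 0.000622. The gene pqn-92 had 33.3, 27.8 and 35.2 CPM on daf-16 RNAi, against 69.1, 71.3 and 72.4 CPM on EV, a log2 fold change of -1.14 ± 0.29 with an edgeR adjusted p of 0.0177. The gene pqn-37 had 1.08, 1.06 and 0.96 CPM, against 3.82, 3.27 and 3.62 CPM on EV, a log2 fold change of -1.78 ± 0.44 with an edgeR adjusted p of 0.0156. In none of these genes did the groups overlap.

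The abu genes were lower in the double mutant on daf-16 RNAi, with 10 of 11 fitted log2 fold changes negative under TMM and 11 with limma on log2(TPM + 1). Their median was -2.005, or -1.40 with floor genes at their bound and -0.96 with limma, while the median of all genes was 0.09. Of these, abu-7 was called (edgeR adjusted p = 0.0358), but not with limma nor in any of the 6 fits that left out a library of these groups. Its CPM were 0.031, 0.0756 and 0.03 on daf-16 RNAi, against 1.32, 1.31 and 1.10 CPM on EV, and its summed counts were 4 and 124, so that the EV libraries had 28.7 times as many after scaling by library size, with an exact 95% counting interval of 10.9 to 107. By edgeR's test 12 of 19 collagens were called, all lower. Their sums overlapped between the groups, at 502, 936 and 502 TPM on daf-16 RNAi, against 826, 936 and 794 TPM on EV. The sperm sum was 407, 573 and 536 TPM on daf-16 RNAi, against 4680, 5673 and 4087 TPM on EV. Of the 31 sperm genes, 0 were called. The pharyngeal muscle sum was 137, 113 and 122 TPM on daf-16 RNAi, against 118, 149 and 119 TPM on EV, and the gland list summed to 48.5, 71.9 and 41.5 TPM, against 62.9, 68.3 and 59.1 TPM. Both sums overlapped between the groups, and the part of these tissues in the abu values was not tested. The count of members called was 1 without eat-2;mxl-2 daf-16 RNAi replicate 1 or 3, and 2 without eat-2;mxl-2 EV replicate 1. Fitted alone, the 6 libraries gave 25, and the share of all genes called at that setting is not given here.

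In the mxl-2 mutant on daf-16 RNAi, edgeR called 0 members, where 0.127% of all genes tested were called, 17 members had an unadjusted p under 0.05, DESeq2 called 6 and limma 0. All 11 abu genes had positive fitted log2 fold changes, with a median of 2.54; the signs were the same under the other scalings, where the median was 1.35 with limma. Replicate 2 on daf-16 RNAi and replicate 3 on EV, the libraries that stood apart, held the lowest abu sums of their groups, and the groups overlapped. For example, abu-13 had 40.7, 0.486 and 55.6 CPM on daf-16 RNAi, against 2.93, 3.70 and 0.48 CPM on EV. Without mxl-2 daf-16 RNAi replicate 2, 8 members were called, all higher, where 6.44% of all genes tested were called at that setting, with abu-12 at a log2 fold change of 3.89 and abu-13 at 4.34, beside pqn-26, pqn-29, pqn-32, pqn-35, pqn-54 and pqn-67 at 1.66 to 4.67 (edgeR adjusted p from 0.00352 to 0.0450). These genes were chosen after their values were seen. Without both libraries that stood apart, 3 were called, pqn-29, pqn-35 and pqn-67, where 3.77% of all genes tested were called.

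In N2 on daf-16 RNAi, edgeR called 0 members, where 0.248% of all genes tested were called, 1 had an unadjusted p under 0.05, and limma and DESeq2 called 0. In eat-2 on daf-16 RNAi it called 0, where 0.0115% of all genes tested were called, 1 had an unadjusted p under 0.05, and limma and DESeq2 called 0. These fits took no libraries as pairs. An unplanned fit of these eat-2 libraries alone, which paired those of unlike replicate numbers, called 4, and its share of all genes is not given here. The response to daf-16 RNAi did not pass the test of a difference between the double mutant and N2 for any member by edgeR, where 0.651% of all genes tested were called; 4 members had an unadjusted p under 0.05, DESeq2 called 2 and limma 0. The nearest was pqn-70, whose response was larger in the double mutant by 0.81 on the log2 scale (edgeR adjusted p = 0.0680).

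The gene pqn-75 was higher on pha-4 RNAi than on EV in both single mutants, where the pha-4 transcript itself was not called. In mxl-2, 2 members were called, both higher, where 0.887% of all genes tested were called. The gene pqn-75 had 11.9, 20.9 and 18.3 CPM on pha-4 RNAi, against 5.56, 7.47 and 4.66 CPM on EV (log2 fold change 1.53 ± 0.37, edgeR adjusted p = 0.0485). The gene pqn-83 had 133, 156 and 134 CPM, against 87.0, 92.4 and 107 CPM on EV (0.56 ± 0.13, edgeR adjusted p = 0.0367). Both genes were near the threshold, and the count was 0 with RLE size factors, and also without mxl-2 EV replicate 1 or 2 or without mxl-2 pha-4 RNAi replicate 1 or 2. Of the 6 fits that left out a library of these groups, pqn-75 was called in 0 and pqn-83 in 2. The log2 fold change of pqn-75 stayed between 1.29 and 1.74 in them.

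In eat-2, 3 members were called on pha-4 RNAi, all higher, where 1.17% of all genes tested were called. The gene pqn-62 had 7.98 and 12.03 CPM on pha-4 RNAi, against 2.59 and 2.37 CPM on EV (log2 fold change 2.01 ± 0.39, edgeR adjusted p = 0.0158). The gene pqn-75 had 29.3 and 41.6 CPM, against 12.2 and 7.29 CPM on EV (1.87 ± 0.46, edgeR adjusted p = 0.0447). The gene pqn-18 had 20.2 and 29.6 CPM, against 10.4 and 8.88 CPM on EV (1.37 ± 0.26, edgeR adjusted p = 0.0146). The low eat-2 EV values of pqn-62 and pqn-18 are the same libraries that were set against N2 EV above, so both results share them. The count was 6 without eat-2 EV replicate 1, 2 without eat-2 pha-4 RNAi replicate 1, and 0 without eat-2 EV replicate 2 or eat-2 pha-4 RNAi replicate 2.

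In N2 on pha-4 RNAi, edgeR called 0 members, where 0.323% of all genes tested were called, 10 had an unadjusted p under 0.05, limma called 1 and DESeq2 3. The abu genes had a median log2 fold change of -1.18, or -0.52 with limma, with 9 of 11 negative under each scaling, while the median of all genes was -0.01. The 3 N2 pha-4 RNAi libraries also had lower collagen sums, at 167, 223 and 122 TPM, against 898, 773 and 838 TPM on EV. Of the 19 collagens, edgeR called 0, and their part in the abu values was not tested. In the libraries labelled eat-2;mxl-2 pha-4 RNAi, where the pha-4 transcript was higher than on EV, 1 member was called, where 1.49% of all genes tested were called. This was pqn-92, at 24.8, 18.97 and 19.1 CPM, against 69.1, 71.3 and 72.4 CPM in the libraries labelled eat-2;mxl-2 EV (log2 fold change -1.76 ± 0.30, edgeR adjusted p = 0.00259). Fitted alone, the 6 libraries gave 27, and the share of all genes called at that setting is not given here.

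The response to pha-4 RNAi differed between the double mutant, as labelled, and N2 for 3 members, where 1.58% of all genes tested were called. For pqn-73 the difference of the responses was 5.59 ± 1.36 on the log2 scale (edgeR adjusted p = 0.0319): it had 13.4, 9.52 and 7.52 CPM on pha-4 RNAi, against 2.17, 2.16 and 1.70 CPM on EV in the double mutant, and 1.27, 2.76 and 1.17 CPM, against 16.6, 15.6 and 17.5 CPM in N2. For pqn-13 it was 4.81 ± 1.19 (edgeR adjusted p = 0.0339), with 6.07, 9.80 and 5.52 CPM on pha-4 RNAi, against 2.61, 2.13 and 2.63 CPM on EV in the double mutant, and 0.54, 0.834 and 1.76 CPM, against 5.61, 14.6 and 10.5 CPM in N2. Both genes were above EV in the double mutant, as labelled, and below it in N2. For pqn-92 the difference was -2.42 ± 0.41 (edgeR adjusted p = 0.00352), with 32.6, 26.1 and 29.9 CPM on pha-4 RNAi, against 23.8, 15.6 and 16.9 CPM on EV in N2. For all 3 genes the direction in the double mutant rests on the labels of its EV and pha-4 RNAi libraries. With these labels exchanged, each gene would move in the direction seen in N2, which follows from their choice by opposite responses. The abu genes had 9 of 11 fitted log2 fold changes negative on pha-4 RNAi in both strains, as labelled. With the labels exchanged, most of them would move in opposite directions in the 2 strains. The labels were not tested. 2 members passed without N2 EV replicate 1 or without N2 pha-4 RNAi replicate 2 or 3, and only pqn-92 passed when any of the other 9 libraries was left out.

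The test of whether eat-2 and mxl-2 combine other than additively on EV called 0 members by edgeR, where 1.27% of all genes tested were called; 10 had an unadjusted p under 0.05, limma called 2 and DESeq2 3. The nearest of the genes described above, pqn-92, was higher in the double mutant than the single mutants add up to by 1.52 on the log2 scale (edgeR adjusted p = 0.0840). All 11 abu genes had positive values under each scaling, with a median of 2.88 as fitted and 1.69 with limma. None of them was called by edgeR. The contrast takes in the low abu libraries of eat-2 EV (1.07 TPM summed, against 25.3 TPM) and mxl-2 EV (1.32 TPM, against 30.3 and 19.4 TPM). The abu genes moved together in single libraries, so equal signs here and in the comparisons above are not independent of each other.

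**Figure D4:**
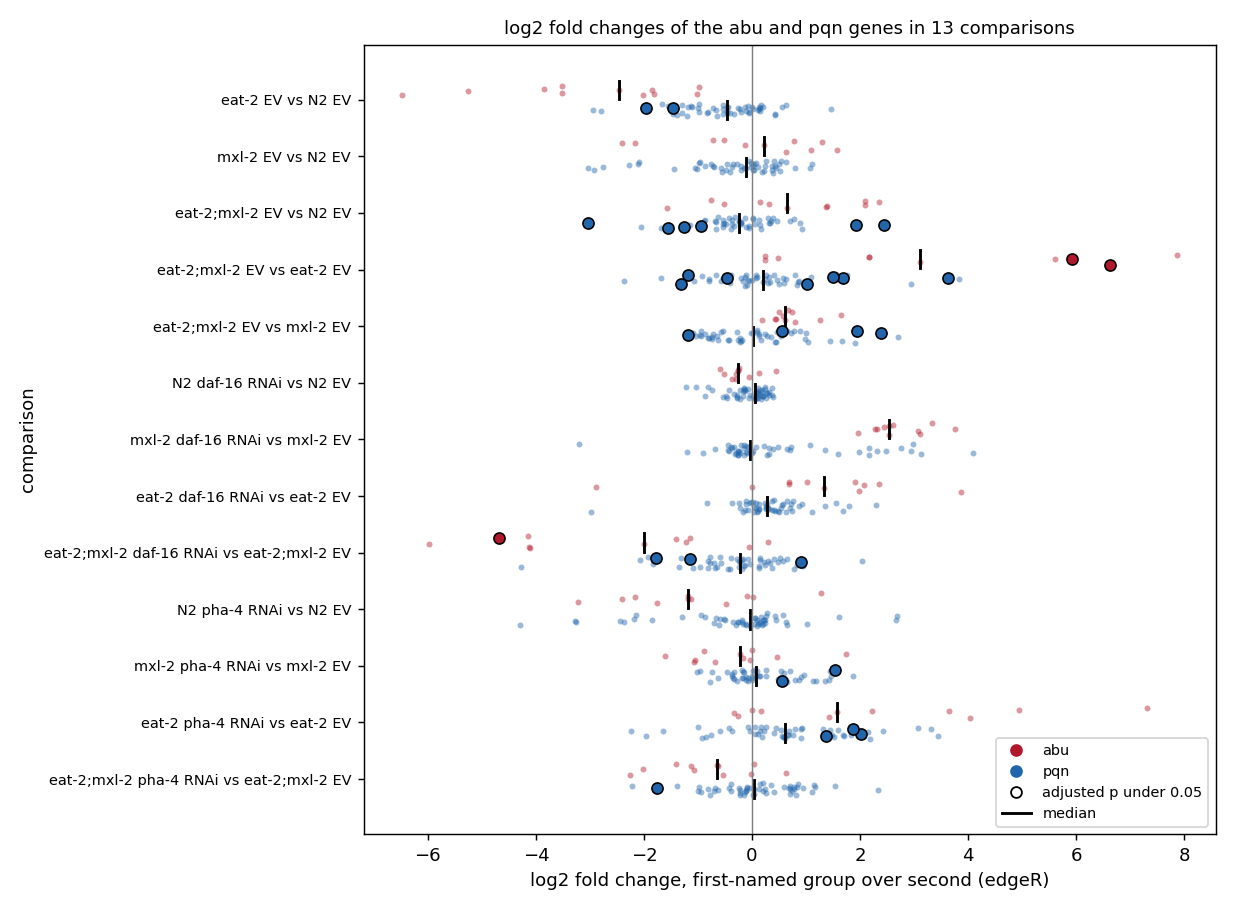
Fitted log2 fold changes of the abu genes (red) and pqn genes (blue) in 13 comparisons, first-named group over the second; each point is a gene, large outlined points passed the test at an adjusted p under 0.05, and black bars are family medians. The abu medians run from -2.46 in eat-2 EV against N2 EV to 3.10 in eat-2;mxl-2 EV against eat-2 EV, while the pqn medians lie between -0.46 and 0.61.

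Counted over the 13 comparisons, 49 of 64 members were called in none, as were 68.7% of all genes tested. The gene pqn-92 was called in 5, 3 higher and 2 lower, and all 5 use the same 3 libraries labelled eat-2;mxl-2 EV, so these calls are not independent. The genes pqn-18 and pqn-62 were called in 4 each and pqn-11 in 3, with control libraries shared between comparisons there too.

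Of 20 genes of the endoplasmic reticulum unfolded protein response, 2 were called in eat-2;mxl-2 EV against N2 EV, 1 in each direction, where 12.1% of all genes tested were called. Against mxl-2 EV 1 was lower, where 7.86% were called, and 1 was higher in the libraries labelled eat-2;mxl-2 pha-4 RNAi against EV, where 1.49% were called. The gene of this list called in all 3 was ced-1, the scavenger receptor that controls abu genes in infection responses. Over the 12 groups, 4 of the 20 were called. Of 16 moulting genes, 3 were called in eat-2;mxl-2 EV against N2 EV, 1 higher and 2 lower, 1 was higher against mxl-2 EV, 2 were called in the test of the pha-4 RNAi response, where 1.58% of all genes tested were called, and 9 were called over the 12 groups. All 19 body-shape collagens were called over the 12 groups, as were 2 of 6 pharyngeal muscle genes and 4 of 12 genes of the gland list, against 46.3% of all genes tested.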

How the data were processed

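Whole-animal polyadenylated RNA of 33 libraries in 12 groups was sequenced with a stranded kit, per the labels' protocols. The deposited tables give raw counts and TPM per gene for 17907 genes, and the authors' rule for leaving out other genes is not given in the sources used here (the highest count of each listed gene was at least 10). The submitters' processing notes name FastQC, Trimmomatic, STAR 2.4.2a, RSEM 1.2.23, featureCounts 1.4.6-p5 and the WBcel235 build, without roles. Positions and exons came from the Ensembl release 115 annotation of the same build, in which all 17907 identifiers were found.

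Counts of 17354 genes that passed edgeR's filterByExpr were scaled with TMM factors (0.782 to 1.56) and fitted with edgeR 4.0.16 (R 4.3.3) in 1 quasi-likelihood model with 12 groups, with p-values adjusted by the Benjamini-Hochberg method over all genes tested and a threshold of 0.05. The biological coefficient of variation was 0.448. SE values are the log2 fold change divided by the square root of F, an approximation. Intervals and the floor of 3 counts per library cover counting error only. Alternatives used DESeq2 1.42.0, limma 3.58.1 on log2(TPM + 1), RLE size factors, no filter, the compared groups alone, a replicate block, and each library left out. The scripts were tested on simulated data.

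Members named with values were the 8 with the highest mean TPM, the 5 with the smallest p over the 12 groups, and, in each comparison and direction, the 3 called with the largest change at a group mean of at least 1 CPM. Others are said to be chosen after their values were seen, except that where few were called all are named. The members, lists and rule were chosen with earlier results of these data known. A planned split of the pqn genes by protein similarity was not made, since no protein sequences were used here.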

Additional observations from a re-analysis of the deposited data

Results flagged for a closer look

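For 3 genes the response to pha-4 RNAi differed between the libraries labelled eat-2;mxl-2 and N2 by a test of the difference itself (edgeR's quasi-likelihood test over all genes, Benjamini-Hochberg adjusted). The difference was 5.59 on the log2 scale for pqn-73 (adjusted p = 0.0319) and 4.81 for pqn-13 (adjusted p = 0.0339), with the double mutant above its EV libraries and N2 below them in every library. It was -2.42 for pqn-92 (adjusted p = 0.00352), with the double mutant below EV and N2 above it in every library. The pha-4 transcript differed in the same contrast by 2.91 (adjusted p = 0.00472), against what the labels of the double mutant say. The part of this in the 3 results was not tested. All 3 opposite directions rest on the EV and pha-4 RNAi labels of the double mutant. With these labels exchanged, each gene would move in the direction seen in N2, which follows from their choice by opposite responses. The abu genes, with 9 of 11 fitted values negative in both strains as labelled, would then mostly move in opposite directions.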

How the results depend on the processing

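No direction of a named result reversed under any alternative run. The calls of pqn-92 in the libraries labelled eat-2;mxl-2 EV against N2 EV (log2 fold change 1.80 to 2.16) and in the pha-4 RNAi response held under every alternative run for them. Counts of members called that moved by more than 1.5 times are given next. With DESeq2 they were 6 for eat-2 against N2 on EV, 14 and 8 for the double mutant against eat-2 and against mxl-2 on EV, 6 and 10 for daf-16 RNAi in mxl-2 and the double mutant, 3, 4 and 6 for pha-4 RNAi in N2, mxl-2 and eat-2, 3 for the eat-2 by mxl-2 interaction and 2 for the daf-16 RNAi response. With limma they were 1 for eat-2 against N2, 7 for the double mutant against mxl-2, 1, 1 and 5 for pha-4 RNAi in N2, mxl-2 and eat-2, and 2 for the interaction. With the compared groups fitted alone they were 1 for eat-2 against N2, 26 and 15 for the double mutant against N2 and mxl-2, 25 for daf-16 RNAi in the double mutant, 5, 0, 0 and 27 for pha-4 RNAi in N2, mxl-2, eat-2 and the double mutant, and 12 for each response. RLE size factors and no filter each gave 0 for pha-4 RNAi in mxl-2. Without the libraries that stood apart, an alternative chosen after seeing the data, they were 4 for eat-2 against N2, 3 and 11 for daf-16 RNAi in mxl-2 and the double mutant, 3, 7 and 2 for pha-4 RNAi in N2, eat-2 and the double mutant, 1 for the interaction, 3 for the daf-16 RNAi response and 5 for the pha-4 RNAi response. The cause of these moves was not tested. The number of all genes called moved between settings too. With a library left out it ran 1063 to 1369 for the double mutant against N2 on EV, against 2101 in the main fit. For daf-16 RNAi it ran 4 to 1118 in mxl-2, against 22, and 252 to 2295 in the double mutant, against 1658. Most counts at other settings, here and in the sections above, stand without the share of all genes at their setting. Their moves are therefore not results about the members alone. In no comparison with 3 pairs did every same-numbered pair correlate above 0.1, so the replicate numbers were not taken as pairs. Comparisons with an eat-2 group have 2 pairs and fell outside this rule. Their pairs correlated at 0.28 and 0.40 for the double mutant against eat-2. Within eat-2, where both groups have 2 libraries, the 2 pairs must give the same value. It was 0.30 for pha-4 RNAi and -0.92 for daf-16 RNAi. For daf-16 RNAi in mxl-2 the pairs gave 0.75, -0.66 and -0.80. So an absence of shared spread between libraries of unlike numbers was not shown. A replicate block gave 5 for the double mutant against eat-2 and 1 for pha-4 RNAi in mxl-2. An unplanned fit of the eat-2 daf-16 RNAi and EV libraries alone used crossed numbers. It paired replicate 1 of each group with replicate 2 of the other as a block, and gave 4, against 0 in the main model. Without a library in turn, counts ran 0 to 5 for eat-2, 0 to 0 for mxl-2 and 2 to 3 for the double mutant against N2, and 0 to 10 and 2 to 4 for the double mutant against eat-2 and mxl-2. They ran 0 to 0, 0 to 8, 0 to 0 and 1 to 3 for daf-16 RNAi, and 0 to 0, 0 to 2, 0 to 6 and 1 to 1 for pha-4 RNAi in N2, mxl-2, eat-2 and the double mutant. For the interaction and the daf-16 RNAi response they ran 0 to 1, for the pha-4 RNAi response 1 to 2, and over the 12 groups 22 to 44, from without mxl-2 daf-16 RNAi replicate 3 to without eat-2 daf-16 RNAi replicate 2. Where this leaves an eat-2 group with 1 library, it is assumed to vary like the other groups. Against TMM, limma on TPM moved the median log2 fold change of all genes to 0.12, 0.18 and 0.24 for the double mutant against N2, eat-2 and mxl-2, to -0.10 for daf-16 RNAi in the double mutant and to 0.23 for the interaction, and RLE moved that of daf-16 RNAi in the double mutant to -0.04 and those of the daf-16 and pha-4 RNAi responses to -0.02 and -0.07. The genes at or under 3 counts limit the abu results.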

Other observations

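The gene pqn-60, chosen after its values were seen, had 18.3, 16.98 and 2.36 CPM in N2 pha-4 RNAi, against 2.62, 1.41 and 1.90 CPM in N2 EV. In eat-2 it had 13.7 and 30.1 CPM on pha-4 RNAi, against 1.95 and 2.42 CPM on EV. In the libraries labelled eat-2;mxl-2 pha-4 RNAi it had 0.931, 1.53 and 1.41 CPM, against 2.58, 4.30 and 3.32 CPM in those labelled eat-2;mxl-2 EV. In these comparisons edgeR in the model of all groups did not call pqn-60. DESeq2 called it in N2 and eat-2, as did edgeR without the libraries that stood apart (log2 fold change 2.66, adjusted p = 0.0394 in N2 and 3.32, adjusted p = 0.0183 in eat-2), and edgeR with the groups fitted alone called it in the double mutant.

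For some members the deposited TPM and counts did not keep the ratio that exon length gives. TPM per count, relative to exon length and to most genes, was 3.75 for abu-1 and 3.07 for its neighbour pqn-2, and 1.88, 1.63, 1.54 and 1.201 for abu-7, abu-15, abu-6 and abu-8 of the cluster. It was 2.46 for pqn-70, 1.86 for pqn-52 and 1.80 for pqn-41, which have no member nearby, and between 0.91 and 1.21 in the neighbour pairs pqn-20 and pqn-21, pqn-67 and pqn-68, and pqn-97 and pqn-98.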
